A study of Mus musculus with 9 samples.

Results

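Homeostatic microglia genes are genes that resting microglia, the resident macrophages of the brain, express at high level. The set followed here holds 9 of the 32285 mouse genes in the count tables: P2ry12, P2ry13, Gpr34, Cx3cr1, Siglech, Selplg, Tmem119, Sall1 and Olfml3. They were matched by gene symbol and read in cells that carried microglia or macrophage RNA. A cell was taken as such when it had at least 1 UMI (a counted RNA molecule) of 3 or more of 7 gate genes, C1qa, C1qb, C1qc, Csf1r, Fcer1g, Tyrobp and Ctss. None of the 9 genes was used in this choice.

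The 9 samples are 5' single-cell libraries of dissociated brain from mice of 6 to 8 weeks. The 4 control samples have the genotype NestinCreERT2;TdT and the 5 tumor samples NestinCreERT2;Fus1. Both groups thus carry the NestinCreERT2 driver, and the tumors, called EP ZFTA-RELA, form where this Cre switches on a ZFTA-RELA transgene in radial glia of the embryo. Cells were sorted with DAPI and an antibody to the red cell antigen Ter119, with no enrichment of leukocytes in the labels. The libraries held 14967680 to 178086164 UMIs, and 1577 to 5907 cells per sample passed quality filters. Nothing in the labels says which samples came from separate animals, so the p-values below measure the spread between these samples.

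Microglia keep this gene program under TGF-beta signalling and the transcription factors PU.1 and SALL1, and they are known to lose it when they respond to injury, neurodegeneration or tumors. Most of its products sit at the cell surface. P2RY12 and P2RY13 sense extracellular ADP, GPR34 senses lysophosphatidylserine, and CX3CR1 binds the neuronal chemokine fractalkine.

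In the GRCm38 annotation P2ry13 (ENSMUSG00000036362, chr3:59207892-59210882) and P2ry12 (ENSMUSG00000036353, chr3:59216272-59262871) are neighbors on the minus strand, 5.39 kb apart with no gene between them. Both lie within Med12l, which is transcribed from the other strand. Tmem119 (ENSMUSG00000054675, chr5:113793729-113800516) and Selplg (ENSMUSG00000048163, chr5:113818536-113832644) also lie close together on the minus strand, 18019 bases apart with 1 annotated gene, Gm19931, between them. Olfml3 (ENSMUSG00000027848) lies at chr3:103722222-103738001, Sall1 (ENSMUSG00000031665) at chr8:89027235-89044162 and Cx3cr1 (ENSMUSG00000052336) at chr9:119901616-120069879, all on the minus strand. Siglech (ENSMUSG00000051504) lies at chr7:55768178-55778925 and Gpr34 (ENSMUSG00000040229) at chrX:13632089-13640858, both on the plus strand. Gpr34 lies within Cask, on the other strand. The long Cx3cr1 gene model overlaps Gorasp1, Csrnp1 and Xirp1 on its own strand. How reads in shared stretches were counted was not examined.

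RefSeq promoters (GRCm38.p6) were at hand for 6 of the 9 genes. The 250 bases before the start are printed for the neighbors P2ry12 and P2ry13, both lowest in tumors 2 and 4 and highest in tumor 3 in the CPM values below, and for Olfml3, the 1 gene of the set called higher in tumors there. All are on the minus strand and read 5' to 3', with capitals marking the PU.1 core GAGGAA on either strand. The windows are chr3:59262986-59263235, chr3:59210883-59211132 and chr3:103738002-103738251.
P2ry12: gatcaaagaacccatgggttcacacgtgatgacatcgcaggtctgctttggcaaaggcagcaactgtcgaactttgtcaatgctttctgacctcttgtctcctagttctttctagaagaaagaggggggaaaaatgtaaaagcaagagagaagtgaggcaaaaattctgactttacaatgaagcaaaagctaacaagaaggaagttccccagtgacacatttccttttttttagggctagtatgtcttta
P2ry13: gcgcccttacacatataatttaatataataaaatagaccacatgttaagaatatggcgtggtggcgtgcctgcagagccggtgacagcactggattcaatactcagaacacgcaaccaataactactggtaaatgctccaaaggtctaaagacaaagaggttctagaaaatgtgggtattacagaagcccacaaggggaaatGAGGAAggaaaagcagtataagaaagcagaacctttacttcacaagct
Olfml3: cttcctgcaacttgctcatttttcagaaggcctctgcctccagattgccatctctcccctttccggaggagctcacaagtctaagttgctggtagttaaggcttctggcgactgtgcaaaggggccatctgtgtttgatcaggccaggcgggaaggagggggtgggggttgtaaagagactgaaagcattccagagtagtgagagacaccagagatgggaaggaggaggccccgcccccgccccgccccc
The letters GAGGAA occurred 1 time in the P2ry13 window and not in the P2ry12 or Olfml3 windows, against 23.3% of the 32851 mouse promoter windows of this length. The SMAD-binding CAGA box, CAGACA, occurred in none of the 3 windows and in 17.1% of all windows. Of the windows at hand that are not printed, only that of Siglech held 1, and none held GAGGAA.

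Cells passing the gate made up 4.22%, 9.95%, 8.10% and 7.96% of the kept cells in controls 1 to 4. They made up 15.9%, 32.4%, 32.6%, 29.0% and 15.5% in tumors 1 to 5. Every tumor thus lay above every control, with means of 25.1% ± 8.67 (SD, n = 5) and 7.56% ± 2.40 (SD, n = 4). The difference of 17.5 percentage points had a two-sided exact permutation p of 0.0159, the smallest that these 9 samples allow. In numbers, 1442 control and 3926 tumor cells passed.

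The gated cells did not hold the same material in both groups. Their mean mitochondrial share was 8.07% to 9.54% in controls and 9.63%, 7.52%, 4.03%, 2.16% and 3.075% in tumors 1 to 5. Their median UMIs per cell were 1982 to 4218 in controls and 2352.5 to 6616 in tumors, most in tumor 4. The summed level of 8 neuron markers was 12760 to 17580 CPM (UMIs of a gene scaled to the total UMIs of the gated cells) in controls and 691 to 3028 CPM in tumors, and all 8 were lower in tumors. Monocyte-derived cell markers summed to 145 to 402 CPM in controls and 977 to 5872 CPM in tumors, highest in tumor 2. Neutrophil markers reached 994 CPM in tumor 3 and 330 CPM in tumor 2 and stood at 52.6 CPM or less elsewhere. Tumor progenitor markers reached 6842 CPM in tumor 4. The part of these other RNAs, of the mitochondrial share and of depth in the values below was not tested. The 9 genes are therefore given in CPM and also per 1000 UMIs of 10 reference leukocyte genes (Ptprc, Laptm5, Cd53, Lcp1, Arhgdib, Rac2, Cyba, Fermt3, Cyth4 and Lyn). RNA of the 9 genes from any cell still counts on that scale.

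In CPM, the 9 genes ranged more widely among tumors than among controls, and for none of them did the groups stop overlapping, where 29.3% of all genes lay lower in every tumor and 12.9% higher. Together they gave 4380, 2122, 2613 and 2474 CPM in controls 1 to 4 and 4287, 1559, 5678, 639 and 2456 CPM in tumors 1 to 5. Tumor 3 was highest of all samples and tumor 4 lowest. Sums over cells cannot tell fewer expressing cells from less RNA in each.

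The ADP receptor gene P2ry12 gave 602, 339, 384 and 367 CPM in controls 1 to 4, and 546, 133, 778, 41.9 and 252 CPM in tumors 1 to 5. Its neighbor P2ry13 gave 166, 68.2, 97.7 and 99.0 CPM in controls and 139, 33.9, 202, 17.4 and 92.3 CPM in tumors. For both genes tumors 2 and 4 were the lowest samples and tumor 3 the highest, and the groups overlapped. The lysophosphatidylserine receptor gene Gpr34 gave 450, 235, 246 and 259 CPM in controls and 440, 81.4, 790, 45.1 and 282 CPM in tumors. The fractalkine receptor gene Cx3cr1 gave 1409, 675, 839 and 809 CPM in controls and 1256, 362, 1492, 127 and 636 CPM in tumors. Again tumors 2 and 4 were the lowest samples.

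Siglech, which encodes a sialic acid-binding lectin, gave 620, 275, 380 and 352 CPM in controls and 537, 202, 713, 47.6 and 256 CPM in tumors. Selplg, which encodes the selectin ligand PSGL-1, gave 410, 215, 253 and 240 CPM in controls and 558, 162, 515, 64.0 and 218 CPM in tumors. The groups overlapped for both, with tumor 4 the lowest sample. Sall1, the gene of a zinc finger transcription factor that maintains microglial identity, gave 102, 67.2, 56.6 and 67.2 CPM in controls and 98.9, 38.4, 112, 28.8 and 54.8 CPM in tumors. Tmem119, a microglial surface marker gene, gave 275, 121, 184 and 149 CPM in controls and 386, 180, 310, 104 and 258 CPM in tumors. Tumor 4 alone lay below the control range for Tmem119.

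Olfml3 encodes a secreted olfactomedin-like glycoprotein. It gave 346, 128, 174 and 133 CPM in controls and 327, 365, 766, 164 and 408 CPM in tumors. Of the 5 tumors, 3 lay above every control, among them tumor 2, in which P2ry12 and Cx3cr1 were at or near their lowest.

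**Figure D1:**
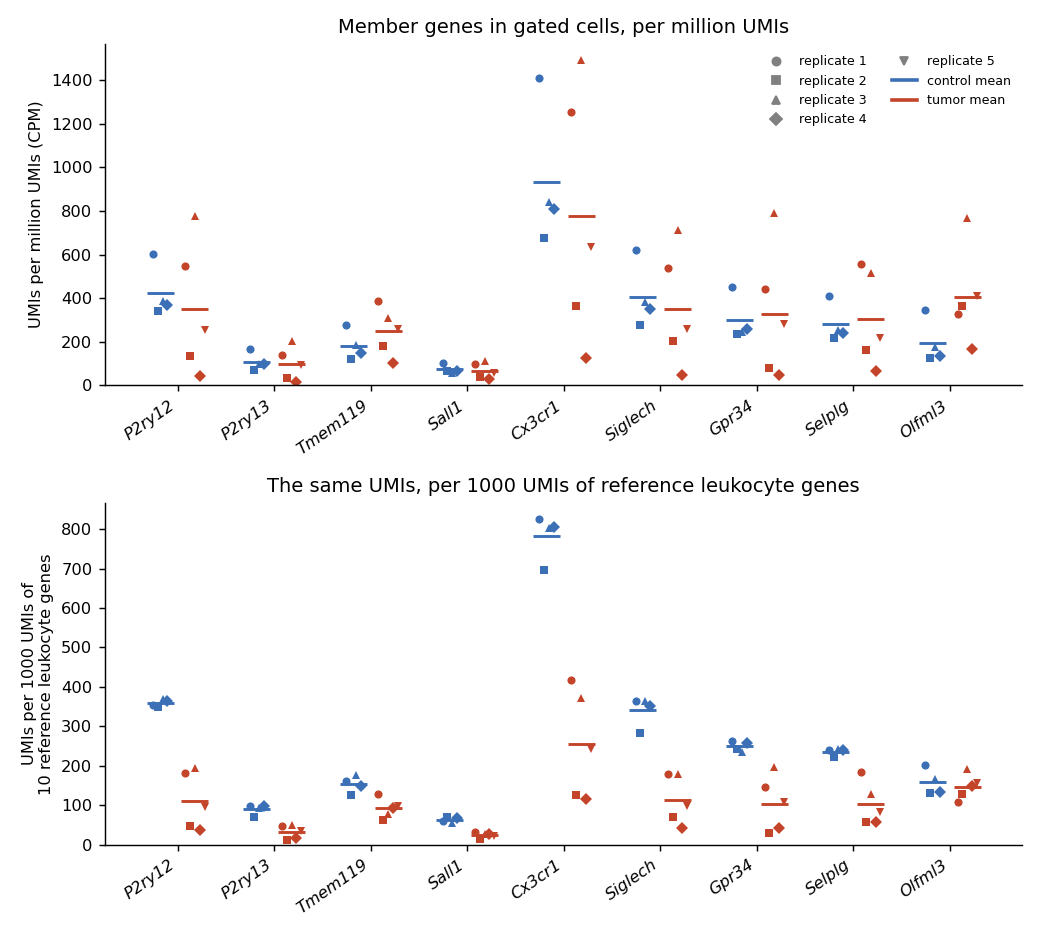
Levels of the 9 genes in gated cells of 4 controls (blue) and 5 tumors (red), 1 symbol per sample and a line at the group mean. Above, CPM, with overlapping groups for every gene; below, UMIs per 1000 UMIs of the reference leukocyte genes, where P2ry12 runs from 350 to 368 in controls and from 37.8 to 194 in tumors.

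In the edgeR fit over 12845 genes of gated cells, 0 of the 9 genes were lower in tumors and 1, Olfml3, was higher. In the same fit 24.1% of all genes were lower and 26.7% higher. Olfml3 changed by 1.38 ± 0.42 (log2 fold change ± SE, edgeR adjusted p = 0.0196). The next, Tmem119, gave 0.75 ± 0.35 (edgeR adjusted p = 0.0947). The other 7 ran from -0.01 ± 0.62 for P2ry12 to 0.40 ± 0.65 for Gpr34, with wide errors. The median over the 9 was 0.15 and over all genes 0.09. In alternative fits of gated cells without the reference genes, the median over the 9 ran from -0.39 with 5 gate genes to 0.79 with all deposited barcodes. Olfml3 lost its call without control 2, 3 or 4 (edgeR adjusted p = 0.0656, 0.0572 and 0.0665).

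Per 1000 UMIs of the reference leukocyte genes, the controls drew close together and most of the genes lay lower in every tumor. The denominator itself was mostly higher in tumors. Of the 10 reference genes 7 were called higher by edgeR with TMM, with a median of 1.24, and together they gave 969 to 1707 CPM in controls and 1109 to 4008 CPM in tumors. On this scale less RNA of the 9 genes and more RNA of the reference genes cannot be told apart. P2ry12 gave 353, 350, 368 and 365 in controls 1 to 4 and 181, 46.5, 194, 37.8 and 95.7 in tumors 1 to 5. The control mean, 359 ± 9.27 (SD, n = 4), was 3.23 times the tumor mean, 111 ± 73.5 (SD, n = 5). Cx3cr1 gave 825, 696, 804 and 806 in controls and 417, 126.4, 372, 114 and 242 in tumors. Its control mean was 3.08 times its tumor mean. For both genes the highest tumor lay well under the lowest control.

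The groups did not overlap for 7 of the 9 genes on this scale, with every tumor lower, against 38.2% of the 12844 gene symbols compared (1.41% were higher in every tumor). The ratio of the control mean to the tumor mean was 3.003 for Siglech, 2.82 for P2ry13, 2.59 for Sall1, 2.41 for Gpr34 and 2.31 for Selplg. Tmem119 overlapped only through tumor 1, at 128 against a lowest control of 125, and its ratio was 1.66. Olfml3 gave 203, 132, 166 and 133 in controls and 109, 127, 191, 148 and 155 in tumors. Its groups overlapped and its ratio was 1.08. Without any 1 of the 10 reference genes the ratio stayed between 2.66 and 3.60 for P2ry12, and between 0.854 and 1.22 for Olfml3. For Selplg the number of tumors below every control then fell to 4, and for Tmem119 to 2. Cyba and Rac2, 2 of the reference genes, were themselves higher in tumors with edgeR on this scale.

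With the reference genes as library size, edgeR called 7 of the 9 genes lower in tumors, all except Tmem119 and Olfml3, where 51% of all genes were lower and 2.93% higher. P2ry12 changed by -1.69 ± 0.50 (edgeR adjusted p = 0.00943), Cx3cr1 by -1.62 ± 0.46 (edgeR adjusted p = 0.00732) and Siglech by -1.59 ± 0.47 (edgeR adjusted p = 0.00870). P2ry13 changed by -1.499, Sall1 by -1.37, Gpr34 by -1.27 and Selplg by -1.21. Tmem119 gave -0.73 ± 0.39 (edgeR adjusted p = 0.123) and Olfml3 -0.11 ± 0.39 (edgeR adjusted p = 0.822). The median over the 9 genes, -1.37, stood close to the median over all genes, -1.24. Without 1 sample at a time 5 to 8 of the 9 were called lower, against 39.8% to 80% of all genes. The 8 were called without tumor 4, where 9868 of 12330 genes were lower.

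**Figure D2:**
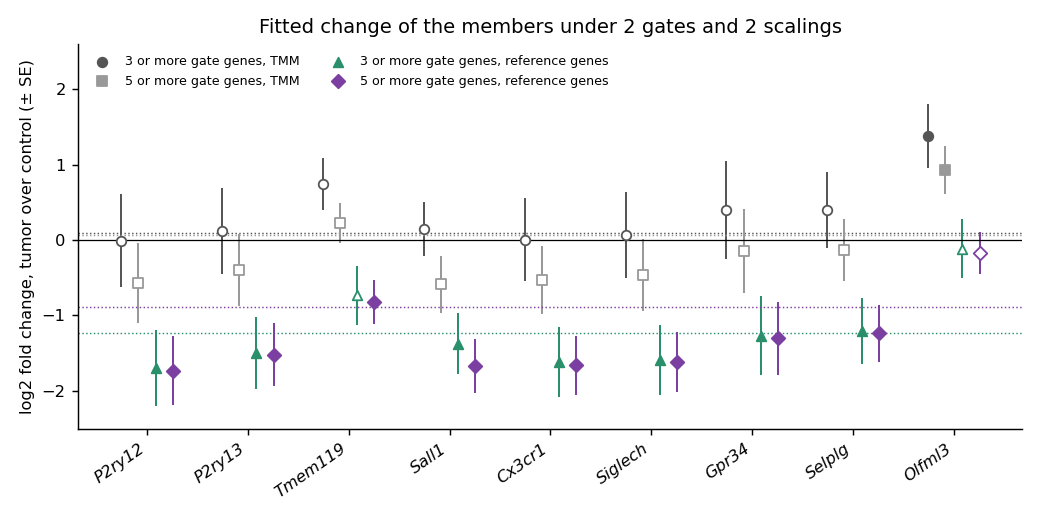
Fitted log2 fold changes of the 9 genes with their standard errors, by gate and library size; filled symbols have an edgeR adjusted p under 0.05 and dotted lines mark the median over all genes of each fit. Olfml3 is the highest of the 9 genes in each of the 4 fits, from 1.38 per TMM library to -0.17 in cells with 5 or more gate genes scaled to the reference genes.

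The 7 gate genes summed to 4301 to 7411 CPM in gated cells of controls and 9740 to 27620 CPM in those of tumors. These cells were chosen by UMIs of the same 7 genes, so the sums only describe the gated cells and no test is drawn from them. A count of them thus need not pick like cells in both groups. Cells with at least 5 of the 7 gate genes, 649 in controls and 2533 in tumors, hold fewer cells at the edge of the gate. In them Olfml3 was higher in tumors by 0.93 ± 0.32 (edgeR adjusted p = 0.0370) and was again the 1 gene of the 9 called, against 21.4% of all genes higher and 20.6% lower. Scaled to the reference genes, 8 of the 9 were lower, against 47.4% of all genes (3.51% were higher), with a median of -1.52 against -0.89 over all genes. Sall1 changed most after P2ry12 (-1.73), by -1.67 ± 0.35 (edgeR adjusted p = 0.00166), and Tmem119 passed at -0.82 ± 0.29 (edgeR adjusted p = 0.0300). Only Olfml3, at -0.17 ± 0.28, was not called.

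A narrower gate asked for at least 2 of the C1q genes and 0 UMIs of 15 genes of border macrophages, monocytes, neutrophils, lymphocytes and dendritic cells. It left 972 control and 2538 tumor cells. None of the 9 genes was called by edgeR in either direction in these cells, against 20.8% of genes lower and 21.8% higher. DESeq2 also called 0, and the number of the 9 with an unadjusted edgeR p under 0.05 was 1, Olfml3, at 0.97 ± 0.41 (edgeR adjusted p = 0.0792). Scaled to the reference genes, P2ry12, P2ry13, Sall1, Cx3cr1 and Siglech were lower by 1.22 to 1.58 on the log2 scale, 5 of 9 against 23.6% of all genes.

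The division of the UMIs among the 9 genes needs no library size. In controls it was nearly fixed, with 31.8% to 32.7% of these UMIs on Cx3cr1, 13.8% to 16.0% on P2ry12 and 5.38% to 7.91% on Olfml3. In tumors Olfml3 held 7.63%, 23.4%, 13.5%, 25.7% and 16.6% in samples 1 to 5. Cx3cr1 held 29.3%, 23.2%, 26.3%, 19.8% and 25.9%, and P2ry12 12.7%, 8.55%, 13.7%, 6.55% and 10.3%. Every tumor lay below every control for Cx3cr1. For P2ry12 tumor 3, at 13.71%, lay just under control 1, at 13.75%, and in the narrower gate it lay above it, at 14.2% against 13.8%. Olfml3 in tumor 1 was within the control range and in the other 4 above it. Tmem119 held 5.70% to 7.03% in controls and 8.99%, 11.6%, 5.45%, 16.2% and 10.5% in tumors, with tumor 3 below every control and the other 4 above. These shares add to a fixed total, so a higher share of 1 gene lowers the rest.

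**Figure D3:**
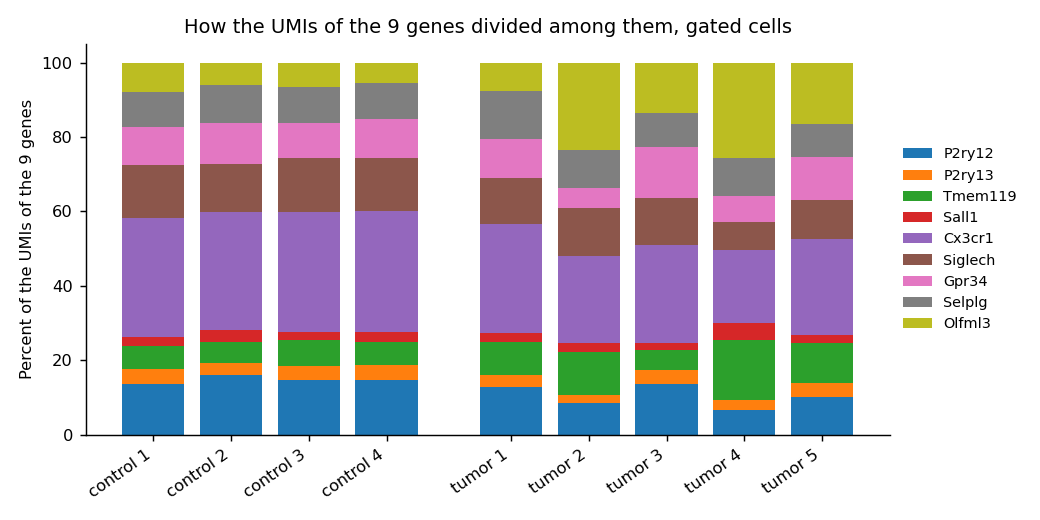
Stacked bars give the percent of the UMIs of the 9 genes that fell on each gene in gated cells, by sample. The 4 control bars are alike, and the Olfml3 segment grows to 23.4% in tumor 2 and 25.7% in tumor 4.

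Across cells, the level of the 9 genes was far higher in cells with all 7 gate genes than in cells with 3. In cells with exactly 3 gate genes they summed to 123 to 190 CPM in controls and 95.4 to 283 CPM in tumors. In cells with all 7 they summed to 6815, 7305, 8872 and 7740 CPM in controls 1 to 4, and to 6002, 2492, 7939, 1970 and 4549 CPM in tumors 1 to 5. Tumor 3 lay within the control range in these cells and the other 4 below it, tumors 2 and 4 furthest. Cells with only 3 gate genes made up 25.7% to 44.9% of gated cells in controls and 16.2% to 30.3% in tumors. As the gate genes summed to more CPM in the gated cells of tumors, cells with the same number of them need not be alike in both groups. Cells with all 7 held a median of 1990.5 to 4028 UMIs in controls and 2610 to 6379 in tumors, most in tumor 4.

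**Figure D4:**
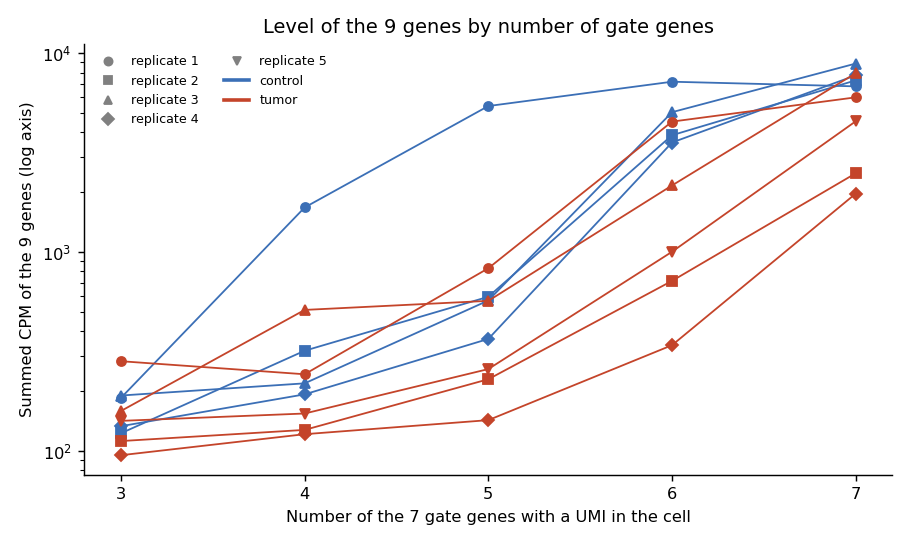
Summed CPM of the 9 genes (log axis) against the number of gate genes with a UMI in the cell, 1 line per sample, controls blue and tumors red. Every line climbs between 5 and 7 gate genes except that of control 1, which falls from 7191 to 6815 between 6 and 7, and in cells with 7 gate genes tumors 2 and 4 lie lowest.

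After each cell was thinned to 1000 UMIs, single cells with 5 or more gate genes carried a UMI of 4.09, 3.08, 3.45 and 3.60 of the 9 genes on average in controls 1 to 4. In tumors 1 to 5 they carried 3.38, 1.77, 3.57, 1.03 and 2.52. The share of such cells with none of the 9 was 5.59% to 22.5% in controls and 12.6%, 28.4%, 13.4%, 49.7% and 19.03% in tumors. The same share in cells with 0 gate-gene UMIs was 91.4% to 96.1% at the same depth. Those cells were chosen for lacking gate-gene UMIs, so they need not measure the background of gated cells. P2ry12 was found in 47.9% to 62.7% of the thinned control cells and in 44.2%, 17.6%, 46.0%, 8.17% and 26.3% of the tumor cells. The groups just failed to overlap, at 46.0% and 47.9%, for this gene alone of the 9. The share of all genes was not computed on this measure. Per UMI, 27.0% of genes lay lower in every tumor in these cells, and 0 of the 9. For P2ry12 the thinned groups overlapped in all gated cells, at 20.4% to 40.6% in controls and 3.78% to 35.1% in tumors, and in the narrower gate. For Cx3cr1, Siglech and Gpr34 the groups overlapped in the cells with 5 or more gate genes too. Olfml3 was found in 22.4% to 46.0% of control cells and in 28.1%, 34.1%, 48.7%, 21.7% and 37.8% of tumor cells.

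Cells with 5 or more gate genes were also divided by whether they held a UMI of a border macrophage or monocyte gene, without thinning to 1 depth. In all 9 samples the 9 genes were lower, per 1000 reference UMIs, in cells with such a UMI: 1000 to 1908 against 2547 to 2847 in controls, and 391 to 1314 against 707 to 1648 in tumors. In CPM the 9 genes were also lower with such a UMI in 8 samples, but not in tumor 4, at 1269 CPM with one and 1133 CPM without. Controls 1 to 4 had only 11, 19, 15 and 8 cells with one, and tumor 2 had the most, 394 of 731. The same cells of tumors 1 to 5 were divided by a UMI of the chemokine genes Ccl3 or Ccl4. Per 1000 reference UMIs the 9 genes gave 1320, 617, 1492, 556 and 704 with one and 1588, 503, 1508, 574 and 1186 without, so the level with one was the higher in tumor 2 alone on this scale. In CPM it was the higher in all 5 tumors, at 5568, 2784, 7806, 1792 and 3683 CPM with one and 5515, 1803, 6648, 814 and 3560 CPM without.

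Cells with 0 UMIs of all 7 gate genes were examined as a contrast, 10707 of 19568 kept cells in controls and 6048 of 15745 in tumors. Kept cells with some gate-gene UMIs but too few for the gate were in neither set. Most of the 9 genes were scarce in the cells with 0, but Sall1 and Tmem119 were higher in tumors. Sall1 gave 6.33, 5.45, 5.33 and 4.31 CPM in controls and 17.1, 36.9, 26.5, 26.9 and 31.6 CPM in tumors, which did not overlap, as for 22.7% of genes with every tumor higher (log2 fold change 2.61 ± 0.32, edgeR adjusted p = 0.000260). Tmem119 gave 3.99, 2.20, 2.20 and 3.04 CPM in controls and 4.84, 25.7, 3.98, 20.8 and 16.4 CPM in tumors (log2 fold change 2.66 ± 0.63, edgeR adjusted p = 0.00539). Both kept this call without any 1 sample. In this fit 30.6% of the 16154 genes tested were higher and 29% lower in tumors.

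In tumors 2 and 4 the Sall1 levels of gated cells, 38.4 and 28.8 CPM, were close to those of cells with 0 gate-gene UMIs, 36.9 and 26.9 CPM. In every other sample the gated cells were higher by a wider margin. Olfml3 stood at 27.2 CPM in the cells of tumor 4 with 0 gate-gene UMIs and at 2.08 to 7.42 CPM in the other samples (log2 fold change 1.66 ± 0.69, edgeR adjusted p = 0.0582, DESeq2 adjusted p = 0.0336). P2ry12, P2ry13, Cx3cr1, Siglech and Gpr34 were lower in tumors there, with log2 fold changes of -1.51 to -2.74. For these 5 every tumor lay below every control, as for 31.1% of all genes. Few UMIs lie behind the lowest tumor values. P2ry13 went down to 0.119 CPM, and after thinning to 1000 UMIs it was found in 0.0% of such cells in tumors 2, 4 and 5. Over all kept cells the gate genes summed to 469 to 579 CPM in controls and 2979 to 11240 CPM in tumors. Asking for 0 UMIs of them can thus act unequally on the groups, and its part in these values was not tested. P2ry12 gave 9.03 to 12.9 CPM in controls and 0.602 to 6.63 CPM in tumors. Selplg gave 0.58 ± 0.50 and was not called.

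**Figure D5:**
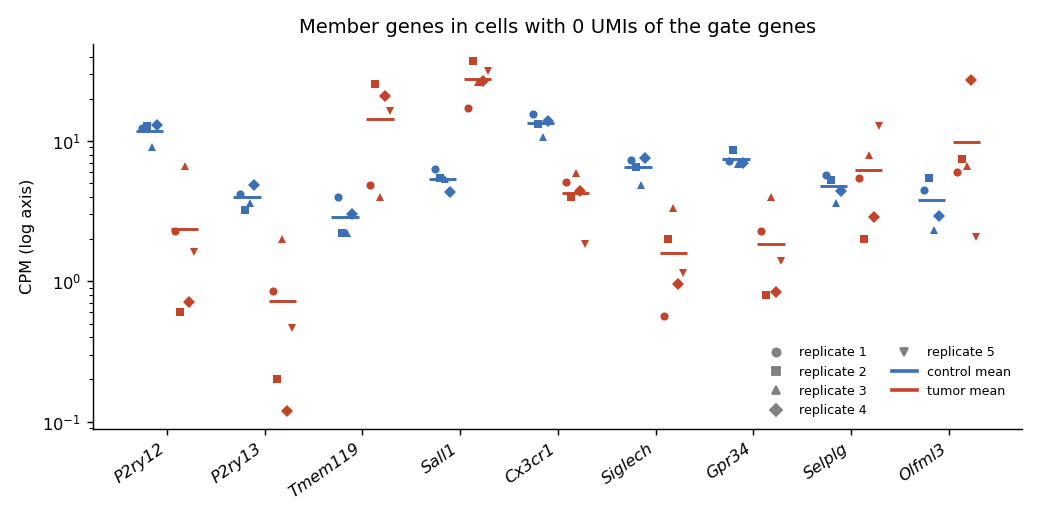
CPM of the 9 genes (log axis) in cells with 0 UMIs of the 7 gate genes, 1 symbol per sample and a line at the group mean. The 5 tumors lie above all 4 controls for Sall1 (17.1 to 36.9 against 4.31 to 6.33 CPM), and below all of them for P2ry12, P2ry13, Cx3cr1, Siglech and Gpr34, against 22.7% and 31.1% of all genes. The lowest tumor values rest on few UMIs.

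Other microglia genes, from lists written for this purpose, were read in the same gated-cell fit, in which the median over all genes was 0.09. Of 22 further homeostatic microglia genes, 10 were higher in tumors, 0 lower and 12 not called, with a median of 0.94. Fcrls, an Fc receptor-like gene, changed by 2.36 ± 0.50 and the leukotriene synthase gene Ltc4s by 2.15 ± 0.42. Scaled to the reference genes, 0 of the 22 were higher and 5 lower, against 51% of all genes lower, with a median of -0.71 against -1.24 over all genes. Among these 5 were Mef2c (-2.52 ± 0.44) and the TGF-beta receptor gene Tgfbr1 (-1.15 ± 0.40). In cells with 0 gate-gene UMIs, 10 microglia transcription factor genes, Mef2c among them, summed to 851 to 1000 CPM in controls and 212 to 426 CPM in tumors. The part of RNA from other cells in the Mef2c value was not tested.

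Of 10 microglia transcription factor genes, 5 were higher, among them Spi1, which encodes PU.1, at 1.78 ± 0.31, and Irf8 at 1.23 ± 0.32. Irf8 turned to -0.27, not called, with the reference genes as library size, where 0 of the 10 were higher and 4 lower. Of 13 genes of the TGF-beta axis, 4 were higher, among them the ligand gene Tgfb1 (1.58 ± 0.34) and the inhibitor Smad7 (1.04 ± 0.17, and -0.22, not called, with the reference genes). Scaled to the reference genes, 0 of the 13 were higher and 5 lower. Of 8 purine-sensing genes, 3 were higher and 2 lower, and with the reference genes 0 were higher and 3 lower. P2rx4, an ATP-gated channel gene, changed by 1.43 ± 0.34 (-0.16, not called, with the reference genes) and P2ry14, a UDP-glucose receptor gene, by -1.81 ± 0.24. Over all genes 26.7% were higher and 24.1% lower in the first fit, and 2.93% and 51% with the reference genes. The share of lower genes on the reference scale was thus under that over all genes in the homeostatic, transcription factor, TGF-beta and purine-sensing lists alike.

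Among ligands and partners of the 9 products, 4 of 7 genes were tested. Csf1 (2.49 ± 0.35) and Tgfb1 were higher, and the fractalkine gene Cx3cl1 (-2.48 ± 0.37) and Il34 were lower. With the reference genes 0 of the 4 were higher and 2 lower. Cx3cl1 stood at 95.4 to 113 CPM in controls and 5.13 to 24.7 CPM in tumors, and it is a neuronal gene, as the neuron markers in these cells are. Of 5 other genes of the P2ry12 locus, the 3 tested, P2ry14, Igsf10 and Med12l, were all lower on both scales, against 24.1% and 51% of all genes. Med12l changed by -1.08 ± 0.39 in gated cells. With 5 gate genes it alone of the locus genes was tested, and it was not called with TMM. In controls the 5 locus genes summed to 77.0 to 105 CPM in gated cells and to 158 to 172 CPM in cells with 0 gate-gene UMIs. In the latter cells the 4 tested were all lower in tumors, against 29% of all genes.

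Genes of activation were largely higher in the same fit. Of 16 activated microglia genes, 14 were tested and 13 were higher, among them Cd63 (2.52 ± 0.29) and the protease gene Ctsd (2.73 ± 0.32). All 10 chemokine and cytokine genes were higher, among them Nfkbia (3.49 ± 0.27). They summed to 57.5 to 144 CPM in controls and 1044 to 4122 CPM in tumors. All 10 dissociation and stress genes were also higher, among them Junb (2.34 ± 0.22). They summed to 408 to 498 CPM in controls and 710 to 9773 CPM in tumors, highest in tumor 3. Scaled to the reference genes, 7 of the 14 activated microglia genes, all 10 chemokine and cytokine genes and 7 of the 10 dissociation and stress genes were higher, and none of these genes was lower. The part of dissociation in these values was not tested.

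Marker lists of other cells moved in both directions. Of 7 border macrophage markers 3 were higher, led by Ms4a7 (3.63 ± 0.92), and of 10 monocyte-derived cell markers 9 were tested and 4 were higher, led by Ms4a6c (3.49 ± 0.58) and Lyz2. All 8 neuron markers were lower, among them Gria2 (-2.12 ± 0.24) and Meg3. All 6 endothelial markers, among them Cldn5 (4.04 ± 0.28), all 7 tumor progenitor markers and 3 of 6 astrocyte markers were higher, and 1 of 6 oligodendrocyte markers was lower. For lymphocyte and dendritic cell markers 1 of 6 each was tested and not called, and of the 6 neutrophil markers none passed the count filter. Scaled to the reference genes, the 8 neuron markers stayed lower and 5 of the 7 tumor progenitor markers higher. The counts of higher genes then fell to 1 of 7 for border macrophages, 3 of 9 for monocyte-derived cells, 2 of 6 for endothelium and 0 of 6 for astrocytes. On that scale 5 of 6 oligodendrocyte markers were lower, as were 1 monocyte-derived, 1 astrocyte, 1 lymphocyte and 1 dendritic cell marker.

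The 10 genes whose log2(CPM + 10) over the 9 samples followed the mean of the 9 genes most closely were Mylip (Pearson r = 0.985), Hps3 (0.982), Abca9 (0.977), Pde3b (0.977), Tgfbr1 (0.974), Maml3 (0.974), Ikzf1 (0.974), Susd3 (0.971), Ivns1abp (0.970) and Gm10790 (0.968). They were chosen from 12835 genes as the closest, and the samples share the same gate and library sizes, so these values only describe. Mylip, a ubiquitin ligase gene, stood at 63.1 to 114 CPM in controls and 13.2 to 134 CPM in tumors.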

How the data were processed

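Single-cell RNA-seq of 4 control and 5 tumor samples was analysed. The authors deposited raw UMI counts per gene and barcode (Cell Ranger 6.1.2 per the file headers, Cell Ranger 7 and mm10 in the submitters' processing notes), without normalization. In control 4 the barcode list names 80865 of 80887 matrix columns, and columns were used. The 10000 barcodes with most UMIs per library were considered and those with 200 to 6000 genes kept. The component with more mitochondrial RNA in a 2-component mixture (scikit-learn 1.9.0) and the highest Scrublet scores (scanpy 1.11.5, 0.8% per 1000 barcodes) were removed. Of 28 pairs of 8 libraries, 25 shared no gated barcode and none shared more than 1.

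Counts were summed per sample over gated cells and tested with edgeR 4.0.16 (R 4.3.3) quasi-likelihood fits over all genes, with TMM, filterByExpr and Benjamini-Hochberg adjustment at 0.05. Total UMIs of gated cells were 519648 to 11105347 per sample, which sets the counting precision. Samples were grouped by genotype label. Alternatives were DESeq2 1.42.0, limma 3.58.1 voom, other library sizes, gates, cell filters and left-out samples. Scaling to 10 reference leukocyte genes was planned as an alternative. The fit of cells with 0 gate-gene UMIs, the fits without tumors 2 and 4, and on the reference scale the fits without single samples, with the replicate block, with limma voom and with the 5-gene gate were added after seeing the data. Scripts were tested on simulated counts. Same-numbered samples did not deviate together (r = -0.083 to 0.037), so numbers were not used as pairs.

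The 9 genes and all lists were chosen with earlier results of these data known. The text names the 9 genes, the list genes with the smallest p and the 10 genes most correlated with the mean of the 9. V(D)J libraries were not used here, and some list genes and 1 alternative gate are not reported here.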

Additional observations from a re-analysis of the deposited data

Results flagged for a closer look

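Within the 4 controls, 3 of the 36 sets of values examined (9 genes, 2 groups, 2 scales) had a sample farther from the rest than Dixon's 95% limit allows. Chance gives about 5% of such sets. Gpr34 was 450 CPM in gated cells of control 1, against 235 to 259 CPM in the other 3. On the reference leukocyte scale control 2 was low for Cx3cr1, at 696 against 804 to 825, and for Siglech, at 284 against 351 to 364. Control 2 still lay above every tumor for both genes. No value among the tumors exceeded the limit, although P2ry12 ran from 41.9 to 778 CPM there.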

How the results depend on the processing

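On the TMM scale, 1 of the 9 genes was higher in gated cells as reported. That number was 0 with total UMIs without TMM (17.4% of all genes) and 2 with a mitochondrial limit of 10% (29.3%). It was 2 with no mixture and no doublet removal (26.1%) and 4 with all deposited barcodes (27.8%). Without single samples it was 0 to 2 (19.8% to 28.3% of all genes). It was 4, against 23.9% of all genes, without tumors 2 and 4. These were left out after their low values of these genes were seen, so this count reflects that choice. With DESeq2, limma voom, no count filter, thinned cells or 5 gate genes it was 1 (17.2% to 27% of all genes). In each of these 0 of the 9 were lower (17.1% to 26.9% of all genes). In restricted-gate cells the number higher was 0 (21.8% of all genes), and 0 to 1 without single samples (15.9% to 24%).

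The reference leukocyte genes as library size moved most values. In gated cells 7 of the 9 were then lower and 0 higher, with P2ry13 at -1.499, Sall1 at -1.37, Cx3cr1 at -1.62, Siglech at -1.59, Gpr34 at -1.27, Selplg at -1.21 and Olfml3 at -0.11 (not called). With 5 gate genes as well, 8 were lower and 0 higher, with P2ry13 at -1.52, Tmem119 at -0.82, Sall1 at -1.67, Cx3cr1 at -1.66, Siglech at -1.62, Gpr34 at -1.30, Selplg at -1.24 and Olfml3 at -0.17 (not called). In restricted-gate cells 5 were lower. List genes that turned, uncalled, were Irf8 (-0.27 and, with 5 gate genes, -0.28), Smad7 (-0.22 and -0.33), P2rx4 (-0.16) and, with 5 gate genes, Tgfb1 (-0.0022). The median over all genes moved from 0.09 to -1.24, and with 5 gate genes from 0.07 to -0.89. The cause was not tested.

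Called genes numbered 6522 in gated cells (3428 higher, 3094 lower), and 2229 higher and 4120 lower without TMM, and 377 and 6554 on the reference scale. The number was 3413 with cells thinned to 1000 UMIs and 4099 with 5 gate genes. In restricted-gate cells it was 4914, 3058 on the reference scale and 2177 thinned, with fewer genes tested in thinned cells. The replicate block, which rests on numbers that did not pair the samples, gave 5244 and 3633 and changed no count of the 9 genes. The share of gated cells was higher in tumors under every alternative tried, with an exact permutation p of 0.0159 to 0.0357. Counting precision limits Sall1 and P2ry13 most, with 53 and 86 UMIs in the shallowest control.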
